A study of Mus musculus with 4 samples.

Results

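Cadherins and desmosome proteins hold the cells of an epithelium together, and 10 of their genes were read in 4 mouse oral cancer cell lines. The genes are Cdh1, Cdh3, Dsg2, Dsg3, Dsc2, Dsc3, Dsp, Pkp1, Pkp3 and Jup. These were chosen by name as components of these junctions, with earlier results of these data known. They are 10 of the 34721 entries of the expression table, which carries 34685 different gene identifiers, and each has 1 entry. The lines came from a study that set up transplantable oral cancer lines in immunocompetent mice. Male C57BL/6 mice received the carcinogen dimethylbenzanthracene (DMBA) on the lining of the cheek by cotton swab until oral cancer was overt. AOC3 and AOC11 were established from the primary tumors of mouse 3 and mouse 11, and AOC3-LN and AOC11-LN from lymph node (LN) metastases of the same mice. All 4 lines were passed once under the skin of a C57BL/6 mouse, and fibroblasts were removed with an isolation kit before the lines were grown. No untreated epithelium was analysed here, so every comparison is between tumor lines.

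RNA from the cells was sequenced with 1 library per line, and abundance is given as FPKM, the fragments of a gene scaled to the length of its transcript and to all mapped fragments of the library. Because FPKM is scaled to length, levels of different genes are set side by side here. Such comparisons are approximate, since the scaling covers only transcript length and the size of the library. From the steps between low FPKM values, the libraries were estimated to hold 33600000 fragments for AOC3 and 28300000 for AOC3-LN, and 33800000 for AOC11 and 32500000 for AOC11-LN. At that depth 7 of the genes rested on between 1166 and 25312 fragments per line, if all came from the longest coding transcript, with a counting error of 0.6% to 2.9%. Dsg3 and Dsc2 rested on 128 to 459 fragments, with a counting error of 4.7% to 8.9%. These errors cover counting only and not the variation between cultures, for which there was no replicate library.

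Classical cadherins bind the same cadherin on the next cell and are tied to actin filaments by catenins, which makes the adherens junction. Desmosomes are built from desmogleins and desmocollins, whose tails bind plakoglobin and plakophilins, and desmoplakin links that plaque to keratin filaments. In stratified epithelia such as the oral mucosa, P-cadherin, desmoglein 3 and desmocollin 3 are typical of the lower layers, while E-cadherin, desmoglein 2 and desmocollin 2 are also found in simple epithelia. Desmoglein 3 is known as the antigen of pemphigus vulgaris, a blistering disease of skin and mouth.

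All 10 listed epithelial markers reached 1 FPKM in at least 1 line and 9 of them in every line, while Cldn1 was at 2.75 FPKM in AOC3 against 0.788 in AOC3-LN, and 1.88 in AOC11 against 0.199 in AOC11-LN. The list had summed levels of 3573 FPKM in AOC3 against 3707 in AOC3-LN, and 3784 in AOC11 against 3604 in AOC11-LN, and Krt18 was the most abundant. None of the 9 fibroblast markers reached 1 FPKM, and their sum was 0.487 FPKM in AOC3 against 0.440 in AOC3-LN, and 0.536 in AOC11 against 1.36 in AOC11-LN, with Pdgfra highest on average, Fbln1 highest in AOC3, Col1a1 highest in both AOC11 lines and no marker at 0 in all lines. None of the 6 endothelial markers reached it either, with sums of 0.441, 0.372, 0.273 and 0.457 FPKM in the same order, Pecam1 highest, and Cldn5 and Emcn listed at 0 in every line. Of 9 leukocyte markers, Cd68 and Csf1r reached 1 FPKM, while Adgre1, Cd3e and Cd8a were listed at 0 in every line and Ptprc was at most 0.0640 FPKM. The summed leukocyte level was 14.0 FPKM in AOC3 against 9.30 in AOC3-LN, and 27.0 in AOC11 against 10.5 in AOC11-LN, with Cd68 as the most abundant gene on average. The labelled cell type, an oral carcinoma line, therefore showed epithelial markers in every line, apart from the low Cldn1, with defining markers of fibroblasts and endothelium near 0.

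Cdh1 (ENSMUSG00000000303.12, chr8:106603351-106670246, plus strand of mm10) encodes E-cadherin, the main adhesion receptor of epithelial adherens junctions. Its level was 144 FPKM in AOC3 against 158 in AOC3-LN, and 151 in AOC11 against 183 in AOC11-LN. It was the highest of the 10 genes in each line and the steadiest, since the highest line exceeded the lowest 1.27 times, and among all entries kept by a filter on low values it stood between the percentiles 95.1 and 96.0.

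Cdh3 (ENSMUSG00000061048.8, chr8:106510891-106557297, plus strand) encodes P-cadherin and lies next to Cdh1. Its level was 57.8 FPKM in AOC3 against 25.9 in AOC3-LN, and 49.6 in AOC11 against 64.0 in AOC11-LN. AOC3-LN stood apart as the low line, and the other lines lay close together. Cdh1 made up 71.4% of the sum of both cadherins in AOC3 against 85.9% in AOC3-LN, and 75.3% in AOC11 against 74.1% in AOC11-LN. The higher share of Cdh1 in AOC3-LN went with the lower level of Cdh3, while Cdh1 itself was 1.10 times its level in AOC3. Fewer cells with a transcript and less of it per cell cannot be told apart in such bulk RNA.

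A span of 159356 bases on chromosome 8 holds Cdh3 and Cdh1, with Gm10073 and the noncoding RNA gene 1110028F18Rik between them. Gm10073 was at 16.5 FPKM in AOC3 against 18.5 in AOC3-LN, and 18.2 in AOC11 against 29.2 in AOC11-LN. Gm10073 thus did not show the low value of Cdh3 in AOC3-LN. The other gene was at most 0.0595 FPKM, too low to be compared between the lines.

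Dsg2 (ENSMUSG00000044393.15, chr18:20558074-20604521, plus strand) encodes desmoglein 2, the most widely expressed desmoglein. Its level was 16.7 FPKM in AOC3 against 7.34 in AOC3-LN, and 17.1 in AOC11 against 11.5 in AOC11-LN. The primary lines were nearly equal, and each lymph node line was below the primary line of its mouse. The antisense gene Gm16090 shares 330 exonic bases with Dsg2 on the opposite strand and was at 1.52, 0.889, 1.48 and 1.35 FPKM in the same order of lines. The library kit marks strand, but mapping and quantification were run with default settings, which do not use strand, so fragments of this overlap cannot be assigned to either gene with certainty.

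Dsg3 (ENSMUSG00000056632.8, chr18:20510274-20547459, plus strand) encodes desmoglein 3. It was at 0.666 FPKM in AOC3 against 0.960 in AOC3-LN, and 1.49 in AOC11 against 1.81 in AOC11-LN. Dsg3 was thus low in every line. It reached 1 FPKM, the level set by the filter on low values, in the AOC11 lines alone, so their higher values are not given as a result. Dsg2 exceeded Dsg3 25.1 times in AOC3 against 7.65 in AOC3-LN, and 11.5 in AOC11 against 6.32 in AOC11-LN, so desmoglein 2 transcripts led in all lines and by the widest margin in AOC3. Of all desmoglein FPKM, Dsg2 made up between 86.3% and 96.1%.

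Dsc2 (ENSMUSG00000024331.11, chr18:20030633-20059554, minus strand) encodes desmocollin 2. Its level was 1.90 FPKM in AOC3 against 1.88 in AOC3-LN, and 0.849 in AOC11 against 3.16 in AOC11-LN. The lines of mouse 11 held both the lowest and the highest value. With 128 estimated fragments in AOC11 and 459 in AOC11-LN, the 95% counting intervals were 0.708 to 1.01 FPKM and 2.88 to 3.46 FPKM, which do not overlap.

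Dsc3 (ENSMUSG00000059898.9, chr18:19960930-20002351, minus strand), which encodes desmocollin 3, was listed at 0 in AOC3, where 3 fragments would have been worth 0.0173 FPKM. It was at 0.0681 FPKM in AOC3-LN, from an estimated 10 fragments and with a 95% counting interval of 0.0326 to 0.125 FPKM. AOC11 had 0.0115 FPKM and AOC11-LN 0.0104 FPKM, both under the level of 3 fragments. Dsc3 was therefore close to the limit of detection in every line, and no fold change is given for it.

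Desmogleins exceeded desmocollins in FPKM 9.16 times in AOC3 against 4.24 in AOC3-LN, and 21.2 in AOC11 against 4.17 in AOC11-LN. Desmocollin transcripts were the scarcer partner in all lines, and least so in both lymph node lines. The summed desmosomal cadherins came to 19.3 FPKM in AOC3 against 10.3 in AOC3-LN, and 19.6 in AOC11 against 16.4 in AOC11-LN. Cdh1 plus Cdh3 exceeded that sum 10.5, 17.9, 10.2 and 15 times, again in the order AOC3, AOC3-LN, AOC11 and AOC11-LN, so that the tilt toward classical cadherins was greater in the lymph node line of each mouse.

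**Figure D1:**
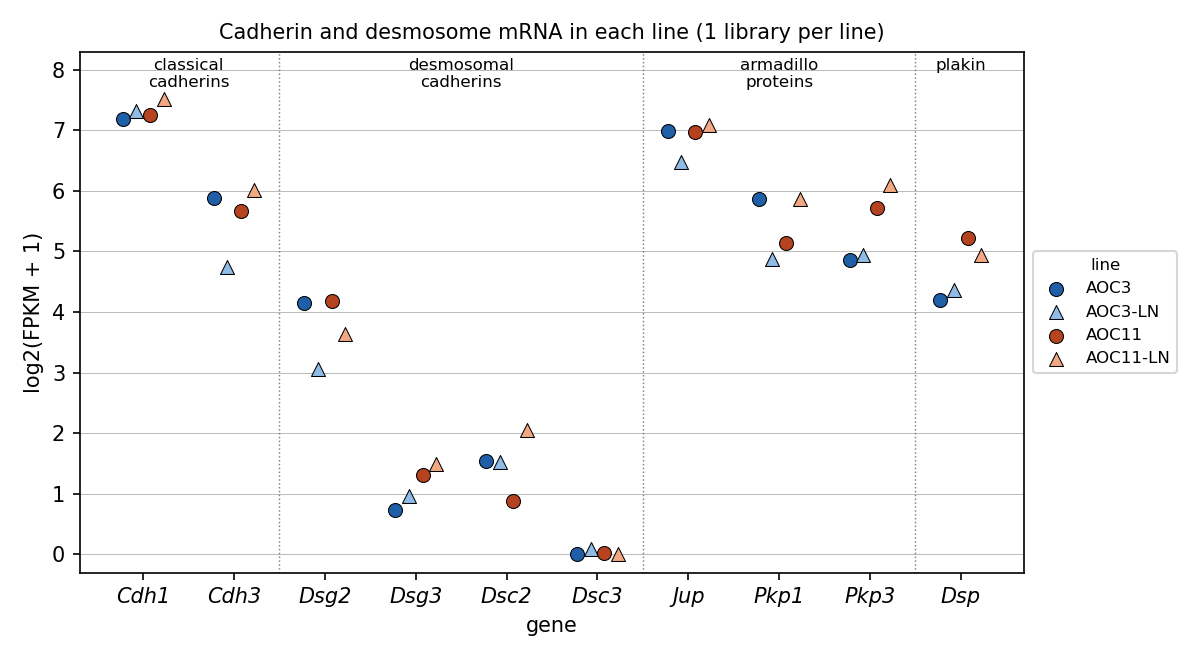
Level of the 10 genes in each line as log2(FPKM + 1) on the vertical axis, with 1 point per library, circles for primary lines and triangles for lymph node lines. Cdh1 and Jup lie highest, Dsg3, Dsc2 and Dsc3 lowest, and AOC3-LN is the low line for Cdh3, Dsg2, Pkp1 and Jup.

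Desmocollin and desmoglein genes form a cluster on chromosome 18, where Dsc3 to Dsg2 span 643592 bases. The 5 genes in the interior of the cluster that are not members, Dsc1, Dsg1c, Dsg1a, Dsg1b and Dsg4, were at most 0.0717 FPKM, and Dsg1c was listed at 0 in all lines. Dsg1a, Dsg1b and Dsg1c are close copies of each other, so the split of fragments between them is uncertain. The pseudogene entries AC102410.1 and AC132091.1 were at most 0.0241 FPKM. Among the desmosomal cadherin genes of the cluster, 1 FPKM was thus reached by Dsg2 at its edge and by the much lower Dsg3 and Dsc2. The antisense gene Gm16090 at the Dsg2 end was at up to 1.52 FPKM, in the range of Dsg3 and Dsc2.

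**Figure D2:**
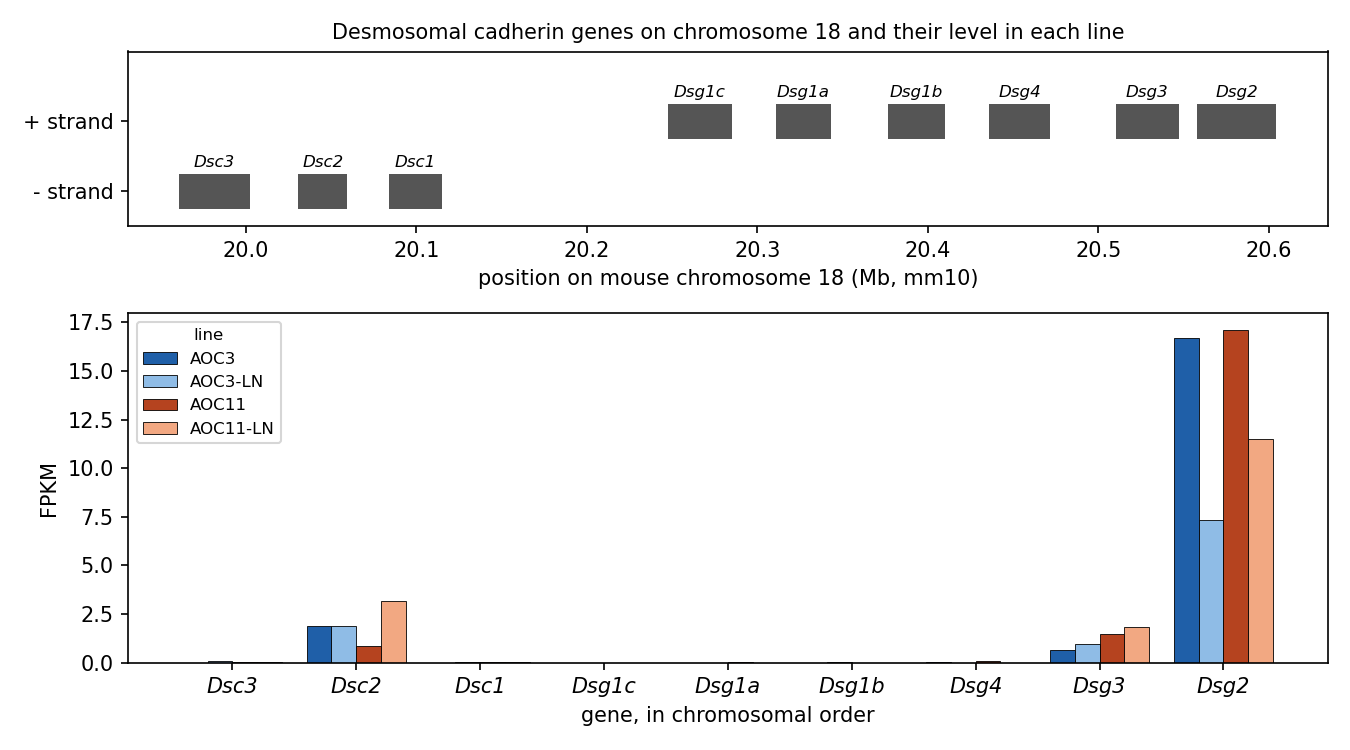
The upper panel maps the 9 desmosomal cadherin genes of the cluster to scale on mouse chromosome 18 (mm10, position in megabases) by strand, and the lower panel gives FPKM of each gene in the 4 lines as bars. Dsg2 reaches 17.1 FPKM, while no other gene of the cluster passes 3.16 FPKM.

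Jup (ENSMUSG00000001552.14, chr11:100368958-100397763, minus strand) encodes plakoglobin, a catenin found in both adherens junctions and desmosomes. Its level was 126 FPKM in AOC3 against 87.6 in AOC3-LN, and 125 in AOC11 against 135 in AOC11-LN. It ranked second among the 10 genes in each line, and AOC3-LN was the low line. Relative to the desmosomal cadherin sum, Jup was 6.53 times as high in AOC3 against 8.53 in AOC3-LN, and 6.37 in AOC11 against 8.19 in AOC11-LN. Its close relative Ctnnb1, which encodes beta-catenin, was at 251, 232, 160.2 and 139 FPKM in the same order, so the ratio of Jup to Ctnnb1 was 0.502, 0.378, 0.780 and 0.971. Plakoglobin transcripts were thus nearer to beta-catenin transcripts in both AOC11 lines than in either AOC3 line.

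Pkp1 (ENSMUSG00000026413.12, chr1:135871395-135919207, minus strand) encodes plakophilin 1, which strengthens desmosomes of stratified epithelia. Its level was 57.4 FPKM in AOC3 against 28.5 in AOC3-LN, and 34.3 in AOC11 against 57.1 in AOC11-LN. The order of primary and lymph node line was opposite in the 2 mice, and the mice overlapped fully.

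Pkp3 (ENSMUSG00000054065.12, chr7:141078218-141090510, plus strand) encodes plakophilin 3, which binds most desmosomal cadherins. It was at 28.0 FPKM in AOC3 against 29.9 in AOC3-LN, and 51.6 in AOC11 against 67.1 in AOC11-LN. Both AOC11 lines were above both AOC3 lines, without overlap. Among plakophilins 1 to 3, Pkp1 made up 53.2% of FPKM in AOC3 against 36.9% in AOC3-LN, and 34.0% in AOC11 against 41.2% in AOC11-LN. The shares of Pkp3 were 25.9%, 38.8%, 51.2% and 48.5% in the same order. Pkp1 therefore led in AOC3 alone, and Pkp3 led in the other 3 lines, by a small margin in AOC3-LN. Pkp2, the plakophilin also found in simple epithelia and heart, made up the rest, at 22.5 FPKM in AOC3 against 18.7 in AOC3-LN, and 14.9 in AOC11 against 14.3 in AOC11-LN.

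Dsp (ENSMUSG00000054889.10, chr13:38151294-38198577, plus strand) encodes desmoplakin, which ties the desmosome to keratin filaments. Its level was 17.3 FPKM in AOC3 against 19.5 in AOC3-LN, and 36.4 in AOC11 against 29.9 in AOC11-LN. As for Pkp3, the AOC11 lines were above the AOC3 lines without overlap. The gene model Gm10129 shares 499 exonic bases with Dsp on the opposite strand but was at most 0.0799 FPKM. Jup exceeded Dsp 7.28 times in AOC3 against 4.50 in AOC3-LN, and 3.44 in AOC11 against 4.51 in AOC11-LN.

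Over the 4 lines the mean level was 159 ± 16.8 FPKM for Cdh1 and 118 ± 21 FPKM for Jup (SD, n = 4 lines from 2 mice). Cdh3 at 49.3 ± 16.7, Pkp1 at 44.3 ± 15.1 and Pkp3 at 44.2 ± 18.7 FPKM followed and differed from each other by less than their spread. Dsp had a mean of 25.8 ± 8.95 FPKM, within the spread of Pkp3, though Pkp3 was above Dsp in each line. Dsg2 had 13.2 ± 4.67 FPKM. Dsc2 at 1.95 ± 0.945 and Dsg3 at 1.23 ± 0.516 FPKM differed by less than the SD of Dsc2 but by more than that of Dsg3, and Dsc3 came last. Desmosomal cadherins thus ranked below all plaque genes of the list on average.

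The first comparison asked how lines of the 2 mice differ. FPKM plus a pseudocount of 1 was log2-transformed and quantile-normalized, and an entry had to reach 1 FPKM in at least 1 line. Of the 10 genes, 9 passed this filter and Dsc3 did not. Dsg3 passed through the AOC11 lines alone, so a higher level there follows in part from the filter. Differences are on the log2(FPKM + 1) scale, which understates those of low genes such as Dsg3 and Dsc2.

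On this scale Pkp3 and Dsp had the largest differences between the mice. The mean log2 level of Pkp3 was 4.94 in the lines of mouse 3 and 5.87 in those of mouse 11, a difference of -0.93 (SE 0.20, 95% interval -1.45 to -0.42). On FPKM itself the ratio of geometric means was 2.03. For Dsp the means were 4.31 and 5.06 and the difference -0.76 (SE 0.20, 95% interval -1.27 to -0.24), a ratio of 1.80 on FPKM. The adjusted p-value from limma was 0.133 for Pkp3 and 0.172 for Dsp, so neither passed 0.05, and both lymph node and primary line of mouse 11 showed the higher level. For Dsg3 the ratio of geometric means was 2.06, at levels where the pseudocount weighs most. Its difference of -0.48 became -0.86 with a pseudocount of 0.1, against -0.78 for Dsp. Dsg3 passed the filter through the AOC11 lines alone, so its difference follows in part from the filter and is not given as a result.

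Cdh1 differed by -0.12 (95% interval -0.55 to 0.32) between the mice, an interval that stays within 2-fold in both directions. Jup differed by -0.27 (95% interval -0.84 to 0.30), which also stays within 2-fold. The intervals of Cdh3 (-0.46, from -1.5 to 0.58), Dsg2 (-0.22, from -1.27 to 0.83), Pkp1 (-0.06, from -1.14 to 1.01), Dsc2 (0.09, from -0.88 to 1.07) and Dsg3 (-0.48, from -1.22 to 0.25) each reach beyond 2-fold. For these 5 genes the 4 lines leave the difference between mice undetermined.

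None of the 9 genes passed 2-fold, a log2 difference above 1 or below -1, between the AOC3 and AOC11 lines. Of all 14165 entries kept, 723 (5.10%) were more than 2-fold higher in the AOC3 lines and 850 (6.0%) were more than 2-fold lower there. limma called 0 of the 9 at an adjusted p under 0.05, where it called 29 entries (0.205%) in all. At an unadjusted p under 0.05 there were 2 of the 9, Pkp3 and Dsp, against 2643 (18.7%) of all entries. Lines of the 2 mice did not overlap for 3 of the 9, Pkp3, Dsp and Dsg3 (33.3%), against 53.1% of all entries. Dsg3 is in this count in part through the filter, which it passed in the AOC11 lines alone, so its separation is not given as a result. The shares of junction genes were thus near or below those of the table as a whole. The median log2 difference was -0.27 over the 9 genes and 0.01 over all entries.

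Each group is 1 mouse with its primary and lymph node line in place of replicates, so the fit describes these lines, and an exact permutation test of 2 lines against 2 could not give a two-sided p below 0.333. Without AOC3 the difference of Cdh3 was -1.02 and without AOC11 that of Pkp3 was -1.12, so that 1 gene passed 2-fold in each of these fits.

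Several genes compared differently between the mice in primary and in lymph node lines, where each value is the difference of 2 single libraries, so that site cannot be told apart from variation between lines. Among primary lines alone, Dsp differed by -1.0, just inside the threshold, and Pkp3 by -0.79, while Pkp1 was higher in AOC3 by 0.79. Among lymph node lines alone, Cdh3 differed by -1.21, Pkp3 by -1.08, Pkp1 by -0.92 and Dsp by -0.51. Pkp1 thus had opposite signs at the 2 sites, and Cdh3 went from 0.29 in primary lines to -1.21 in lymph node lines. Pkp3 and Dsp were lower in the line of mouse 3 at both sites.

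**Figure D3:**
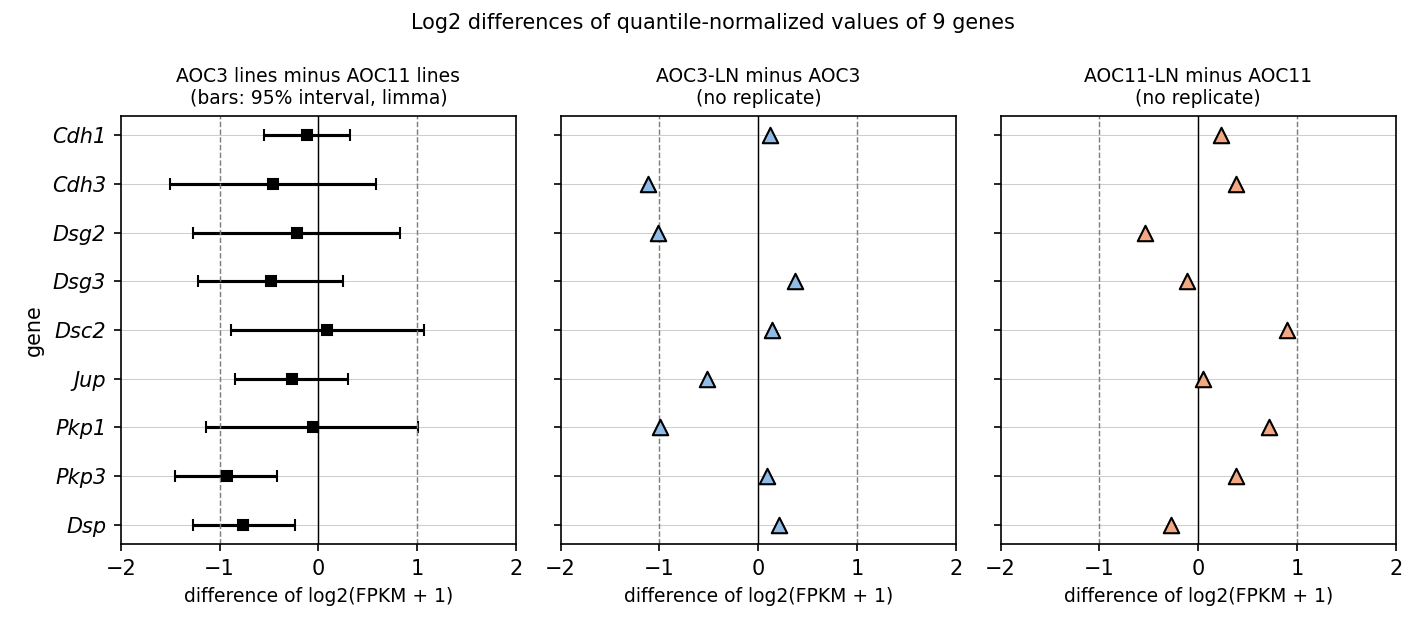
Differences of quantile-normalized log2(FPKM + 1) of the 9 genes that passed the filter, with dashed lines at 2-fold. Squares with bars give the AOC3 lines minus the AOC11 lines with the 95% interval from limma, and triangles give lymph node minus primary line, without replicates. In AOC3-LN, Cdh3 at -1.12 and Dsg2 at -1.01 pass the line, and Pkp1 at -0.99 falls just short.

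The second comparison set each lymph node line against the primary line of its mouse. In mouse 3, 3 junction genes were about 2-fold lower in AOC3-LN than in AOC3. Cdh3 was at 25.9 FPKM against 57.8 FPKM, which is 44.8% of the primary line and a log2 difference of -1.12. Dsg2 was at 43.9% of its level in AOC3 (log2 difference -1.01), and Pkp1 at 49.7% (log2 difference -0.99). Jup, at 69.5% of its level in AOC3, had a log2 difference of -0.52.

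Among the remaining genes of mouse 3, Cdh1 differed by 0.12, Dsp by 0.21 and Pkp3 by 0.09. Dsg3 was at 144% of its level in AOC3, with a log2 difference of 0.37 that became 0.73 with a pseudocount of 0.1. Its 95% counting intervals were 0.559 to 0.788 FPKM in AOC3 and 0.819 to 1.12 FPKM in AOC3-LN, which do not overlap. Dsc2 had 0.14 after quantile normalization and -0.01 without it, so no direction is given. Cdh3, Dsg2 and Pkp1 were thus lower in AOC3-LN while Cdh1, Pkp3 and Dsp were not.

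Cdh3 and Dsg2 were the 2 of 9 genes more than 2-fold lower in AOC3-LN (22.2%), against 484 of 14165 entries (3.42%), and no junction gene was more than 2-fold higher, against 299 entries (2.11%). The median log2 difference was 0.09 over the 9 genes and 0.02 over all entries. Each line is 1 library, so there is no replicate to set this difference against, and it was not tested. The genes were chosen with earlier results of these data known, so the contrast of these shares is no test. With FPKM scaled to a common median, Dsg2 was at -1.0 and only Cdh3 passed.

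In mouse 11 the log2 difference of lymph node and primary line was positive for 6 of the 9 genes and negative for 3. This is a count of signs between single libraries and was not tested. The median over all entries was -0.02. Dsc2 was at 372% of its level in AOC11 and had a log2 difference of 0.90, the largest of the 9 genes in this mouse. Pkp1 was at 166% (0.72), Pkp3 at 130% (0.38), Cdh3 at 129% (0.38) and Cdh1 at 121% (0.23). Dsg2 was at 66.8% of the primary line, with a log2 difference of -0.54, and Dsp at 82.1%, with -0.28. Jup differed by 0.05, and for Dsg3 the difference of -0.11 became 0.17 without quantile normalization, so its direction depends on the scaling. Dsg2 was the gene with a lower level by more than 0.5 in the lymph node line of both mice.

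None of the 9 genes passed 2-fold in AOC11-LN, against 704 entries (4.97%) higher and 445 (3.14%) lower. Without quantile normalization 912 entries were higher and 369 lower, which moved the share of higher entries from 61.3% to 71.2%. Dsc2 then had a difference of 1.17 and passed 2-fold, as it did with a common median (1.15) and with a pseudocount of 0.1 (1.36). The median was 0.23 over the 9 genes and -0.02 over all entries, again from 1 library per line.

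Other desmosome genes stayed within 2-fold on the log2(FPKM + 1) scale. Of 9 listed, 4 reached 1 FPKM, namely Pkp2, Pkp4, Perp and Cdsn, and 0 of these 4 passed 2-fold in any of the 3 comparisons. Cdsn, at 0.519 FPKM in AOC3 against 1.18 in AOC3-LN, and 0.497 in AOC11 against 0.867 in AOC11-LN, passed the filter through AOC3-LN alone and was past 2-fold there with a pseudocount of 0.1 (1.27). Perp, a desmosome-associated membrane protein of stratified epithelia, was at 119 FPKM in AOC3 against 149 in AOC3-LN, and 174 in AOC11 against 144 in AOC11-LN. Pkp4 was at 61.4, 64.4, 62.8 and 49.4 FPKM in the same order. Between the mice Pkp2 differed by 0.55, Pkp4 by 0.23 and Perp by -0.23, with a list median of 0.20. limma called 0 of the 4, and 1 of them, Pkp2, had an unadjusted p under 0.05, against 18.7% of all entries.

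Several catenins and nectins, the partners of classical cadherins, had larger differences between the lines than Cdh1. Ctnna1, which encodes alpha-catenin, was at 329 FPKM in AOC3 against 339 in AOC3-LN, and 217 in AOC11 against 141 in AOC11-LN, a log2 difference of 0.96 between the mice. Ctnnb1 was also higher in both AOC3 lines (0.69), whereas Ctnnd1, which encodes p120-catenin, was at 104, 98.6, 112 and 102 FPKM and differed by -0.03. Nectin2, an adhesion molecule of the immunoglobulin family, was at 39.6 FPKM in AOC3 against 15.6 in AOC3-LN, and 67.2 in AOC11 against 78.2 in AOC11-LN. Nectin4 was at 4.94, 0.829, 5.80 and 7.98 FPKM. Both had their lowest level in AOC3-LN, the line that was also low for Cdh3 and Dsg2. Of the other nectins, Nectin1 was at 3.24, 3.24, 1.10 and 2.95 FPKM, with AOC11 as the low line, and Nectin3 was at most 0.818 FPKM and was not kept.

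Of 13 adherens junction partners, 9 were kept, and 2, Nectin2 (-1.43) and Nectin4 (-1.19), were more than 2-fold lower in the AOC3 lines, with a list median of -0.03. Nectin2 (-1.23) and Nectin4 (-1.60) were also the 2 genes past 2-fold in AOC3-LN against AOC3, where the list median was -0.11, and 0 passed in AOC11-LN, with a median of -0.17. Without AOC3-LN the count between the mice was 0, and without AOC11-LN it was 1. limma called 0 of the 9, and 4 had an unadjusted p under 0.05, against 18.7% of all entries. Of all entries, 11.1% passed 2-fold between the mice and 5.53% in AOC3-LN.

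Cdh1 and Cdh3 were set against their own sum plus the list of other cadherins, with desmosomal cadherins left out. They made up 90.6% of that FPKM in AOC3 against 91.6% in AOC3-LN, and 97.6% in AOC11 against 97.0% in AOC11-LN. Cdh15 was not analysed here. Cdh2, the N-cadherin gene, was at most 0.000376 FPKM, and Cdh5 and Cdh11, typical of endothelium and of mesenchyme, were at most 0.0542 and 0.235 FPKM. Cdh13, a cadherin without a cytoplasmic tail, was at 13.5 FPKM in AOC3 against 13.3 in AOC3-LN, and 2.29 in AOC11 against 4.98 in AOC11-LN, and Cdh24 at 7.18, 3.36, 2.34 and 2.35 FPKM. These were the 2 of 11 other cadherins that were kept, and Cdh13 alone passed 2-fold between the mice (1.76), while Cdh24 differed by 0.93. Without AOC3-LN, without AOC11, and also with a pseudocount of 0.1, both passed. limma called 0 of the 2, though both had an unadjusted p under 0.05, as did 18.7% of all entries. Of all entries, 11.1% passed 2-fold between the mice. Cdh13 had an adjusted p of 0.0471 among protein-coding genes alone (0.0471 to 0.287 over the alternatives that kept every line). Neither gene passed 2-fold between the sites of a mouse.

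Plakins and hemidesmosome genes, which join keratin to desmosomes or to the basement membrane, were all kept (9 of 9). Itga6, the alpha subunit of the hemidesmosome integrin, was at 188 FPKM in AOC3 against 259.7 in AOC3-LN, and 86.3 in AOC11 against 69.0 in AOC11-LN and was the 1 gene past 2-fold between the mice (1.54). Col17a1 differed by 0.95 and Lad1 by -0.63, with a list median of 0.57. In AOC3-LN the 1 gene past 2-fold was Col17a1 (1.48), at 0.346, 2.44, 0.0874 and 0.254 FPKM, and 0 passed in AOC11-LN. Col17a1 passed the filter through AOC3-LN alone, so its higher level there follows in part from the filter, and with a filter of 5 FPKM the count was 0. Without AOC3, without AOC11-LN, and also with a pseudocount of 0.1, 2 genes of the list passed between the mice, Itga6 and Col17a1. limma called 0 of the 9, with 4 at an unadjusted p under 0.05, against 18.7% of all entries. Of all entries, 11.1% passed 2-fold between the mice and 5.53% in AOC3-LN. Itga6 had an adjusted p of 0.0391 among protein-coding genes alone (0.0391 to 0.287 over the alternatives that kept every line).

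Of 7 repressors of cadherin genes, 5 were kept and 0 passed 2-fold between the mice, with a list median of 0.32. Zeb1 was at most 0.196 FPKM and Twist2 at most 0.0263 FPKM. Twist1 was at 16.4 FPKM in AOC3 against 14.5 in AOC3-LN, and 4.69 in AOC11 against 16.0 in AOC11-LN, Snai1 at 6.25, 2.41, 5.96 and 7.05 FPKM, and Zeb2 at 2.45, 2.88, 0.451 and 1.93 FPKM. Twist1 was the 1 repressor past 2-fold in AOC11-LN (1.56), in the same line in which Cdh1 and Cdh3 were at their highest, and Zeb2 also passed there with a pseudocount of 0.1 (1.41) and without quantile normalization (1.01). Snai1 was lowest in AOC3-LN, where Cdh3 was also lowest. No repressor passed 2-fold in AOC3-LN, but Snai1 did with a pseudocount of 0.1 (-1.17), without quantile normalization (-1.09) and with a common median (-1.01). Whether these repressors bear on the cadherin genes was not tested. Of all entries, 8.11% passed 2-fold in AOC11-LN. limma called 0 of the 5, with 0 at an unadjusted p under 0.05, and the count past 2-fold between the mice was 1 without AOC3, 1 with a pseudocount of 0.1 and 2 without AOC11-LN.

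Epithelial transcription factors are given by example. Esrp1 was at 56.8 FPKM in AOC3 against 53.5 in AOC3-LN, and 56.9 in AOC11 against 54.2 in AOC11-LN, and Grhl2, which is known to act on the Cdh1 gene, at 21.1, 18.8, 18.8 and 19.5 FPKM. Both varied little between the lines and were picked as examples after their values were seen. Their relatives Esrp2, at 8.42, 8.45, 14.1 and 17.0 FPKM, and Grhl1, at 0.184, 0.628, 2.51 and 1.89 FPKM, were higher in both AOC11 lines, though Grhl1 passed the filter through these lines alone. Klf4, at 8.09, 17.7, 5.17 and 5.39 FPKM, was more than 2-fold higher in the AOC3 lines (1.13), with an adjusted p-value of 0.249 from limma that did not pass 0.05. It was also more than 2-fold higher in AOC3-LN than in AOC3 (1.12). Both differences rest on the single library of AOC3-LN, without which Klf4 differed by 0.57 between the mice. Trp63, a regulator of basal epithelial cells, was at 1.69, 2.10, 0.0848 and 0.841 FPKM, and Tfap2c at 0.0661, 0.0587, 8.2 and 4.05 FPKM. Trp63 passed the filter through the AOC3 lines alone and Tfap2c through the AOC11 lines alone, so the direction of each between the mice follows in part from the filter, and neither is given as a result of the test.

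Of 7 proteases known to cut cadherins, Mmp7 was not analysed here and 2 were kept, Adam10 and Adam17, which cleave E-cadherin and desmoglein 2 among other proteins. Adam10 was at 26.3 FPKM in AOC3 against 19.0 in AOC3-LN, and 23.0 in AOC11 against 18.9 in AOC11-LN, and Adam17 at 18.6, 15.9, 19.3 and 16.2 FPKM. Differences between the mice were 0.18 and 0.04, and 0 of the 2 passed 2-fold in any comparison or had an unadjusted p under 0.05 in limma.

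Some keratins, the proteins of the filaments that desmoplakin anchors, had far larger differences between the mice than the desmosome genes. Krt5 was at 499 FPKM in AOC3 against 275 in AOC3-LN, and 4.99 in AOC11 against 17.0 in AOC11-LN, and Krt6a at 22.9, 81.1, 1.16 and 1.40 FPKM. Krt7 was at 13.0, 5.91, 635 and 306 FPKM, a log2 difference of -5.39 with an adjusted p of 0.0421 in limma, and both AOC11 lines were above both AOC3 lines. That adjusted p of Krt7 was 0.275 with no filter on low values and 0.0573 in eBayes without trend. Over the alternatives that kept every line it ranged from 0.00844 to 0.275. Leaving out 1 line gave differences of -5.88 to -4.90. Krt14, the usual partner of Krt5, was at 166, 150.3, 257 and 259 FPKM. Krt8 (0.11), Krt18 (0.50) and Krt14 (-0.69) differed less between the mice than Pkp3 and Dsp did, while Krt19 differed by -2.46. The lines in which Pkp3 and Dsp were higher were thus those with high Krt7 and low Krt5. Csf1r was higher in these lines as well, at 0.995 FPKM in AOC3 against 0.435 in AOC3-LN, and 20.8 in AOC11 against 6.01 in AOC11-LN, the lines through which alone it passed the filter, and Cd68 was lower, at 13.0, 8.79, 6.15 and 4.45 FPKM. The part of these markers in the differences of Pkp3 and Dsp was not tested.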

How the data were processed

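Cells of 4 lines were sequenced with 1 library per line on stranded mRNA libraries. The authors trimmed reads with Trim Galore, used TopHat2 to map them to mm10 and Cufflinks with GENCODE M21 to obtain FPKM, with default settings, which do not use strand, and deposited the FPKM values before any log2 transformation or quantile normalization. Versions are not given in the sources used here. Identifiers were matched to GENCODE M21 for symbols and positions. Values of log2(FPKM + 1) were quantile-normalized over all 34721 entries, and the 14165 that reached 1 FPKM in at least 1 line were kept. limma 3.58.1 in R 4.3.3 (lmFit, eBayes with trend, Benjamini-Hochberg adjustment over all entries kept) compared the AOC3 with the AOC11 lines, and was tested on simulated data. Differences of single libraries were not tested. Depth was estimated from the steps of low FPKM values of 9528 genes with 1 transcript of at least 800 bases, of which 63.6% to 67.2% lay within 0.1 of a whole fragment number, against 20% by chance. All 10 genes were named, with up to 3 genes of each list by largest difference between the mice, and examples of catenins, other desmosome genes and genes of the clusters; other genes named are examples chosen after their values were seen. The members and lists were chosen with earlier results of these data known. Counts over the list of epithelial transcription factors are not reported here.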

Additional observations from a re-analysis of the deposited data

Results flagged for a closer look

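For 5 of the 9 genes kept, the lymph node line differed from the primary line in opposite directions in the 2 mice (55.6%), against 51.9% of all 14165 entries, so the share is near that of the table as a whole. With a common median it was 4 of the 9. The shift in AOC3-LN less the shift in AOC11-LN, on the log2 scale, was -1.71 for Pkp1 (-0.99 against 0.72) and -1.5 for Cdh3 (-1.12 against 0.38). It was -0.57 for Jup (-0.52 against 0.05, a small shift in AOC11-LN), 0.49 for Dsp (0.21 against -0.28) and 0.48 for Dsg3 (0.37 against -0.11). For Dsg3 the signs were opposite with quantile normalization, but without it both shifts were positive, 0.23 and 0.17. Each shift is between single libraries, and the difference between the mice was not tested for any of these genes.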

How the results depend on the processing

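Between the AOC3 and AOC11 lines, the count of junction genes past 2-fold was 0, and it was 1 without quantile normalization (Pkp3 at -1.0, just past), 2 at 1.5-fold (Pkp3 and Dsp) and 2 in lymph node lines alone (Cdh3 and Pkp3). Leaving out 1 line at a time gave 0 to 1. In AOC3-LN the count of 2 became 1 with a common median. It was 3 with a pseudocount of 0.1, where Pkp1 at -1.01 also passed, and 3 at 1.5-fold. In AOC11-LN the count of 0 became 1 with a pseudocount of 0.1, 1 without quantile normalization and 1 with a common median (Dsc2 each time), and 2 at 1.5-fold (Pkp1 and Dsc2). Including the counts of 3 in AOC3-LN, 29 counts of junction genes stayed within 1.5 times and 10 did not. The 29 include limma counts of 0. They also include counts under other filters, which leave the log2 difference of a gene unchanged. This tally is therefore no measure of stability. The cause of the shifts in the counts was not tested.

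Signs of small differences between the mice turned with the lines used. Primary lines alone gave 0.29 for Cdh3, 0.02 for Dsg2, 0.79 for Pkp1 and 0.02 for Jup, and lymph node lines alone gave -0.29 for Dsc2. Leaving out 1 line gave -1.02 to 0.10 for Cdh3, -0.72 to 0.29 for Dsg2, -0.56 to 0.43 for Pkp1 and -0.36 to 0.54 for Dsc2. For Pkp3 it gave -1.12 to -0.74 and for Dsp -0.89 to -0.62, with the same sign throughout.

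limma called 0 junction genes under every alternative, with 1 or 2 at an unadjusted p under 0.05. Without 1 line a mouse is a lone library, assumed to vary like the other pair, and then 0 of all 14165 entries were called, so these fits say nothing of stability. Site as a replicate block also called 0 (31 of all entries). Shifts of the 2 mice had a correlation of -0.11 across entries, which are not independent. Over the alternatives that kept every line, the adjusted p from limma ranged from 0.0771 to 0.291 for Pkp3 and from 0.120 to 0.310 for Dsp. Over all entries limma called 29, against 0 with no filter (4247 at an unadjusted p under 0.05), 50 with 5 FPKM and 256 among protein-coding genes. Entries past 2-fold between the mice went from 1573 to 2627 with a pseudocount of 0.1, in AOC3-LN from 783 to 1443 and in AOC11-LN from 1149 to 2074. Among protein-coding genes they were 473 and 689 in the lymph node comparisons. Depth limits Dsc3, and Dsg3 and Dsc2 in part.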
